A study of Mus musculus with 6 samples.

Results

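The miRNAs described here are those of red blood cells from 2 loci, the miR-144/miR-451a cluster and the miR-486 hairpins, in the prefrontal cortex of aged mice. The members were taken by name, mmu-miR-144-3p, mmu-miR-144-5p, mmu-miR-451a, mmu-miR-486a-5p and mmu-miR-486b-5p, and all 5 were present among the 1189 miRNA entries. Small RNA was sequenced from 3 mice with postoperative neurocognitive disorder (PND group) and 3 control mice (CON group), with 1 library per mouse. All were wild type male C57BL/6 mice, 18 months of age by the age label (the sample titles carry 17M). They went through the same behavioral tests, of which the Barnes maze was the last. All were then deeply anesthetized with isoflurane and perfused with saline before the cortex was dissected. PND mice had inhaled 1.5% isoflurane for 30 min, had an exploratory laparotomy of 30 min under isoflurane, and had lidocaine cream and povidone iodine on the incision afterwards. CON mice received neither anesthesia nor surgery before that final isoflurane. The effects of the drug, the operation and the care of the wound therefore cannot be told apart.

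In developing red cells the miR-144/miR-451a cluster is switched on by the factor GATA1, and miR-451a becomes one of the most abundant miRNAs of the mature cell, which has no nucleus but keeps small RNA. miR-451a protects red cells against oxidative stress by repressing Ywhaz (14-3-3 zeta). Its short hairpin is cut by AGO2 and not by DICER, while miR-144 is made in the usual way. miR-486 is carried by Ank1, the gene of ankyrin-1 of the red cell skeleton, and is also known from skeletal and heart muscle. These miRNAs are widely used as signs of blood in a tissue or of burst red cells in plasma. In a bulk sample, a change in the number of cells of a type and a change in the RNA per cell cannot be told apart.

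The sequences of 3 of the 5 members were found in the RefSeq table (build GRCm38.p6), and are shown because the 3 miRNAs of the cluster, all highest in PND mouse 1, carry different seeds. Capitals mark the seed, bases 2 to 8 from the 5′ end.
mmu-miR-144-3p: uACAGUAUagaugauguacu
mmu-miR-144-5p: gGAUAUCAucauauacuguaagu
mmu-miR-451a: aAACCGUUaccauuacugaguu
The 3 seeds differ from each other, and 0 other entries of the table with a known mature sequence (997 in all) shared any of them. No sequence was available here for mmu-miR-486a-5p and mmu-miR-486b-5p, which are known as identical or nearly so. Reads could be split or shared between them, and the rule used for such reads is not given in the sources used here. The entries may therefore not be separate measurements.

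The 2 hairpins of the cluster are shown for their difference in structure, with the mature arms in capitals.
Mir144 hairpin: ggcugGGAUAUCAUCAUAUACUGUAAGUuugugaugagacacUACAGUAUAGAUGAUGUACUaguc
Mir451a hairpin: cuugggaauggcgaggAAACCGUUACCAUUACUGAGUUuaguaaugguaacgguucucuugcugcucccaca
In Mir144 the -5p arm covers bases 6 to 28 and the -3p arm bases 43 to 62 of 66, on either side of a loop. In Mir451a the mature miRNA covers bases 17 to 38 of 72 as a single piece that runs into the loop. On GRCm38 Mir144 lies on the plus strand of chromosome 11 from 78073005 to 78073070 and Mir451a on the same strand from 78073170 to 78073241, 99 bp apart and outside protein-coding genes. Mir486 lies on the plus strand of chromosome 8 from 23142555 to 23142682, in an intron of Ank1, which is read in the same direction. Mir3107, the gene name of the miR-486b hairpin, lies inside it on the minus strand from 23142573 to 23142662. The deposited values carry no positions.

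Depth was 17600766 to 19471226 reads on miRNAs in the PND libraries and 14849461 to 16093467 in the CON libraries, so every PND library was deeper. Values are CPM, the reads of an entry scaled so that every library has the same total (999998 or 999999 after rounding), and the reads behind them were recovered from their steps. A level of 3 reads, the limit that a count of 0 allows, was 0.154 to 0.202 CPM. The cortical miRNA miR-128-3p took 17.6% to 29.2% of the reads of a library, most in CON mouse 2. CON mouse 1 stood apart by the epithelial miR-200 family, with a sum of 5 arms of 861 CPM against 27.3 to 36.7 CPM elsewhere. The 4 neuronal miRNAs summed to 281072 to 373298 CPM, and 0 of the defining markers of neurons were at 0.

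miR-451a was the member with the largest spread. Its reads numbered 797, 14 and 33 for PND mice 1 to 3, and 47, 25 and 10 for CON mice 1 to 3. In the same order its level was 40.9, 0.795 and 1.86 CPM with PND, and 3.08, 1.68 and 0.621 CPM without. PND mouse 1 was high, at 13.3 times the next library, and the other 5 mice overlapped between the groups. By abundance miR-451a ranked 245th of the 1189 entries in PND mouse 1 and between 447th and 622nd in the other mice. Among these 5 the level still varied by more than counting error. CON mouse 1 was 4.95 times CON mouse 3, with exact 95% intervals of 2.26 to 4.09 CPM and 0.298 to 1.14 CPM. These intervals cover counting error only, since no molecular identifiers are described.

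The miR-144 arms were the lowest members. For miR-144-5p the PND libraries held 31, 1 and 3 reads, and the CON libraries 4, 0 and 0. For miR-144-3p the PND libraries held 13, 0 and 1 reads, and the CON libraries 1, 0 and 0. Only in PND mouse 1 did both arms exceed the floor of 3 reads, at 1.59 CPM for miR-144-5p and 0.668 CPM for miR-144-3p, and miR-144-5p also exceeded it in CON mouse 1, at 0.262 CPM. In the other libraries neither arm was above the floor, so the groups could not be compared there at this depth.

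The proportion of the arms could be measured well in PND mouse 1 alone. In PND mouse 1 miR-144-5p made up 31 of the 44 miR-144 reads, 70.5% (exact 95% interval 54.8% to 83.2%), and CON mouse 1 had 4 of 5. miR-144 made up 5.23% of the reads of the cluster in PND mouse 1 (3.83% to 6.96%). In CON mouse 1 the share was 9.62% (3.20% to 21.03%) and in PND mouse 3 it was 10.8% (3.03% to 25.4%), from 5 of 52 and 4 of 37 reads, with wide intervals that overlapped that of PND mouse 1. CON mouse 2 had 0 of 25 reads, which allows a share of up to 12%.

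The miR-486 entries were higher and varied far less. For mmu-miR-486a-5p PND mice 1 to 3 were at 57.9, 46.2 and 47.6 CPM, while CON mice 1 to 3 were at 51.3, 30.2 and 40.2 CPM. The groups overlapped, with CON mouse 1 above PND mice 2 and 3 and CON mouse 2 lowest. For mmu-miR-486b-5p they were at 89.6, 65.1 and 63.7 CPM with PND, and at 62.4, 53.0 and 59.6 CPM without. Here every PND mouse was above every CON mouse, by a margin between PND mouse 3 and CON mouse 1 that lay within their counting intervals. PND mouse 1 was the highest library for both entries, at 1.13 and 1.38 times the next. The highest library was 1.92 times the lowest for mmu-miR-486a-5p and 1.69 times for mmu-miR-486b-5p, against 65.9 times for miR-451a.

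In each of the 6 mice mmu-miR-486b-5p was above mmu-miR-486a-5p, which was above miR-451a, which was above both miR-144 arms. mmu-miR-486a-5p took between 36.3% and 45.1% of the reads of the 2 miR-486 -5p entries. The lowest share was in CON mouse 2 (33.6% to 39.0%) and the highest in CON mouse 1 (42.8% to 47.5%), so the split between the 2 entries varied by more than counting error. The passenger strand miR-486a-3p was read 36, 29 and 26 times with PND and 12, 13 and 23 times without, and it made up 1.51% to 3.44% of the reads of the miR-486a arms. miR-486b-3p had at most 6 reads in any library.

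**Figure D1:**
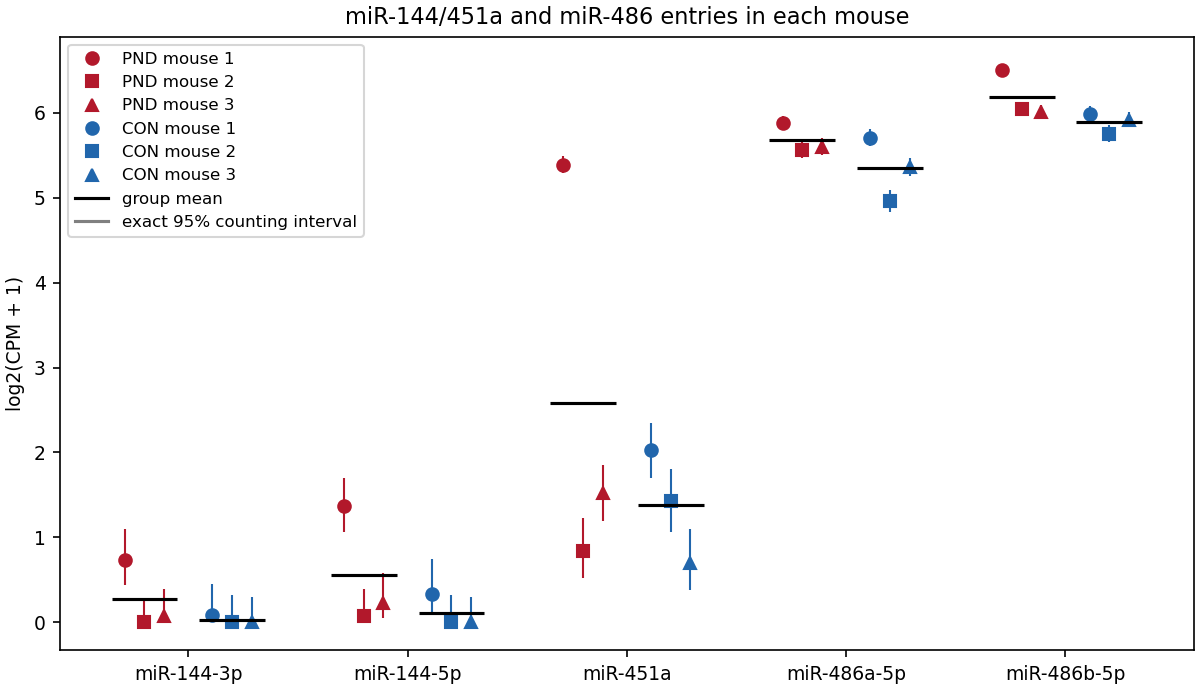
Level of each member in each mouse as log2(CPM + 1), with PND mice in red, CON mice in blue, black bars for the group means and thin lines for the exact 95% counting intervals. PND mouse 1 sits apart from the other 5 mice for the 3 miRNAs of the miR-144/miR-451a cluster, while for the miR-486 entries the 6 mice lie within a 1.92-fold range.

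The first question was whether the erythroid miRNAs differed between PND and CON mice. All 5 members had a higher mean of log2(CPM + 1) in the PND group, as did 776 of all 1189 entries. In limma on log2(CPM + 1), 0 of the 5 passed the limits of the study (unadjusted p under 0.05 and a fold change above 2). The study names limma too, but took its p-values from edgeR and its fold changes from its scaled values. This was therefore not its exact procedure, and the edgeR results are given below. Over all 1189 entries the share that passed was 0.0841%. At an unadjusted p under 0.05 alone 0 of the 5 passed, where 5.13% of all entries did. The median log2 fold change was 0.34 for the members and 0.05 over all entries, many of which had few reads. Over the 656 entries with at least 10 reads in 3 libraries the median was 0.12. At these group sizes an exact permutation test cannot give a p below 0.1.

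For miR-451a the PND mean was 14.5 ± 22.9 CPM (SD, n = 3 here and below), against a CON mean of 1.79 ± 1.23 CPM. PND mouse 1 held 93.9% of the PND total, and without it the PND mean was 1.33 CPM, below that of the CON group. The log2 fold change was 1.20 with a 95% interval of -1.28 to 3.68 (limma, adjusted p = 0.77), within the spread of the mice (two-sided exact permutation p = 0.6). The value was -0.20 without PND mouse 1 and lay between 0.86 and 2.07 without any other mouse. The choice of test decided the call. edgeR's exact test on the recovered reads put miR-451a past both limits, at a log2 fold change of 2.96 (adjusted p = 0.94), and 1.26% of all entries were up-regulated by this rule. edgeR's quasi-likelihood test also called it (log2 fold change 2.97, adjusted p = 0.82), and DESeq2 gave it no p, since it withholds p-values for entries in which a single library is extreme.

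The 2 arms of miR-144 differed in the same direction. The log2 fold change was 0.45 for miR-144-5p (95% interval -0.28 to 1.18, limma, adjusted p = 0.77) and 0.24 for miR-144-3p (-0.17 to 0.66, adjusted p = 0.77). As most libraries had no more than 3 reads, the added 1 CPM holds these values down: with 0.1 CPM added they were 1.43 and 0.95, and in edgeR and DESeq2 they ran from 2.67 to 2.78 for miR-144-5p and from 3.07 to 3.28 for miR-144-3p. Without PND mouse 1 they were 0.04 and 0.01. In the edgeR tests and DESeq2 neither arm passed the limits.

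For the miR-486 entries, which may share reads, the difference was small and similar in both. mmu-miR-486a-5p averaged 50.6 ± 6.36 CPM with PND and 40.6 ± 10.6 CPM without, a log2 fold change of 0.34 (95% interval -0.14 to 0.81, limma, adjusted p = 0.77). mmu-miR-486b-5p averaged 72.8 ± 14.6 CPM and 58.3 ± 4.82 CPM, a log2 fold change of 0.30 (-0.08 to 0.68, adjusted p = 0.77). With TMM factors mmu-miR-486a-5p fell to 0.22 and with DESeq2 size factors to 0.19. As deposited, the intervals leave out a doubling in either direction. Both stayed above 0 with any mouse left out, between 0.14 and 0.52 for mmu-miR-486a-5p and between 0.14 and 0.39 for mmu-miR-486b-5p. Without CON mouse 1, mmu-miR-486a-5p had an unadjusted p under 0.05 in limma, with an adjusted p of 0.57.

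mmu-miR-486b-5p was the member whose groups did not overlap, 1 of 5, while 7.91% of all entries did not overlap with higher values in the PND group. This separation depended on the scaling. With TMM factors the PND mice were at 59.6 to 89.7 CPM and the CON mice at 60.0 to 61.6 CPM, so the groups overlapped, and the log2 fold change was 0.18. With DESeq2 size factors they overlapped too, and the log2 fold change was 0.15. miR-486a-3p behaved alike, with PND and CON means of 1.66 ± 0.191 and 1.03 ± 0.349 CPM, without overlap as deposited (log2 fold change 0.40, limma, adjusted p = 0.77), and with overlap under both scalings. Its margin as deposited, 1.47 CPM in PND mouse 3 against 1.43 CPM in CON mouse 3, lay within their counting intervals. Of the 6 libraries CON mouse 2, lowest in both miR-486 -5p entries as deposited, had the highest share of miR-128-3p, and the part of that share in the result was not tested.

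**Figure D2:**
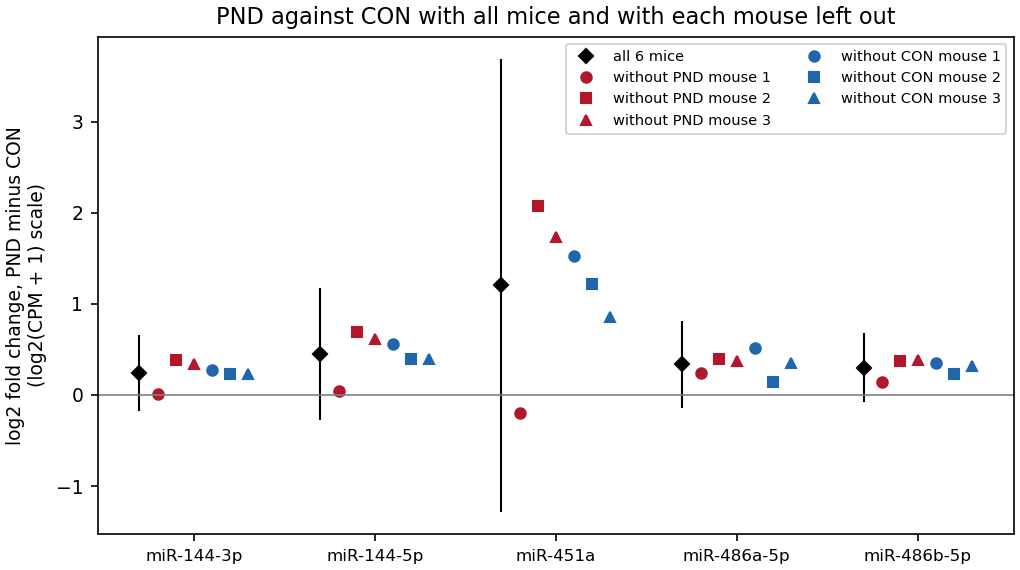
The log2 fold change of each member, PND minus CON, on the log2(CPM + 1) scale, with all mice (black, with the 95% interval from limma) and with each mouse left out (red for a PND mouse, blue for a CON mouse). Leaving out PND mouse 1 takes miR-451a from 1.20 to -0.20 and the miR-144 arms to near 0, and the miR-486 entries stay between 0.14 and 0.52.

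The second question was whether the 2 loci moved together. The miR-144/miR-451a cluster gave sums of 43.2, 0.852 and 2.09 CPM for PND mice 1 to 3, against 3.40, 1.68 and 0.621 CPM for CON mice 1 to 3. The 2 miR-486 -5p entries gave sums of 147, 111 and 111 CPM, against 114, 83.2 and 99.8 CPM. PND mouse 1 was highest and CON mouse 1 second in both sums, and the lowest library was CON mouse 3 in the first and CON mouse 2 in the second.

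Over the 6 mice the sums had a Pearson r of 0.79 (exact permutation p = 0.0972, two-sided) and a Spearman rho of 0.71 (exact permutation p = 0.136), on the log2(CPM + 1) scale. Without PND mouse 1 and CON mouse 3, the mice farthest from the median of the cluster, r was 0.18 over 4 mice, and without PND mouse 1 alone it was 0.23 over 5 mice (rho of 0.50). As deposited, the Pearson correlation therefore rested on PND mouse 1. With TMM factors r was 0.95 (exact permutation p = 0.0389) and with DESeq2 size factors 0.96 (exact permutation p = 0.0361), with all 6 mice, and rho was 0.60 with either. Without PND mouse 1 these r were 0.42 and 0.45, with a rho of 0.30 in both.

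Pairs of members were also compared. Within the cluster, Pearson's r was 0.99 between the miR-144 arms, 0.99 between miR-144-5p and miR-451a, and 0.98 between miR-144-3p and miR-451a. Each had an exact permutation p of 0.00833 and an adjusted p of 0.0278 over the 10 pairs of members. Spearman's rho was 0.95 for the arms (exact permutation p = 0.00833), 0.90 for miR-144-5p with miR-451a (exact permutation p = 0.0278, adjusted p = 0.0556) and 0.94 for miR-144-3p with miR-451a (exact permutation p = 0.0167). Without the 2 mice farthest from the median, PND mouse 1 and CON mouse 1, r was 0.94, 0.52 and 0.64 for these pairs over 4 mice with at most 3 reads of either miR-144 arm, too few to measure the relation of miR-144 with miR-451a. Without PND mouse 1 alone r was 0.96, 0.80 and 0.82 over 5 mice. Between the miR-486 entries, which may share reads, r was 0.83 (exact permutation p = 0.0597, adjusted p = 0.0995) and rho was 0.77 (exact permutation p = 0.103). Of the 6 pairs across the loci, 0 had an adjusted p under 0.05 for r, while rho was 0.99 for mmu-miR-486a-5p with miR-144-5p and 0.94 with miR-144-3p, each with an adjusted p of 0.0417 (exact permutation test). By rho these were as high as the pairs within the cluster, and no test compared the pairs. Outside PND mouse 1 no library held more than 4 reads of either miR-144 arm. The rho values with miR-144 therefore rank ties and counts near the floor, and cannot measure its relation with miR-486.

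In size the loci differed more than in order. PND mouse 1 exceeded the mean of PND mice 2 and 3 by 41.7 CPM in the cluster and by 36.2 CPM in the miR-486 sum, which is 29.4 times and 1.32 times. The cluster made up 22.7% of all member reads in PND mouse 1 (exact 95% interval 21.3% to 24.0%) and 0.619% to 2.91% in the other mice. The sum of miR-486 was 3.41 times the cluster in PND mouse 1 and between 33.4 and 161 times in the others. The PND minus CON difference was 1.24 for the cluster (exact permutation p = 0.6, two-sided) and 0.31 for miR-486 (exact permutation p = 0.3) on the log2 scale. For miR-486 it was 0.19 with TMM and 0.16 with DESeq2 size factors. The difference between these was 0.93 (exact permutation test on the ratio of the sums, two-sided, p = 0.8) and was -0.34 without PND mouse 1, so a differing response of the 2 loci was not shown.

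**Figure D3:**
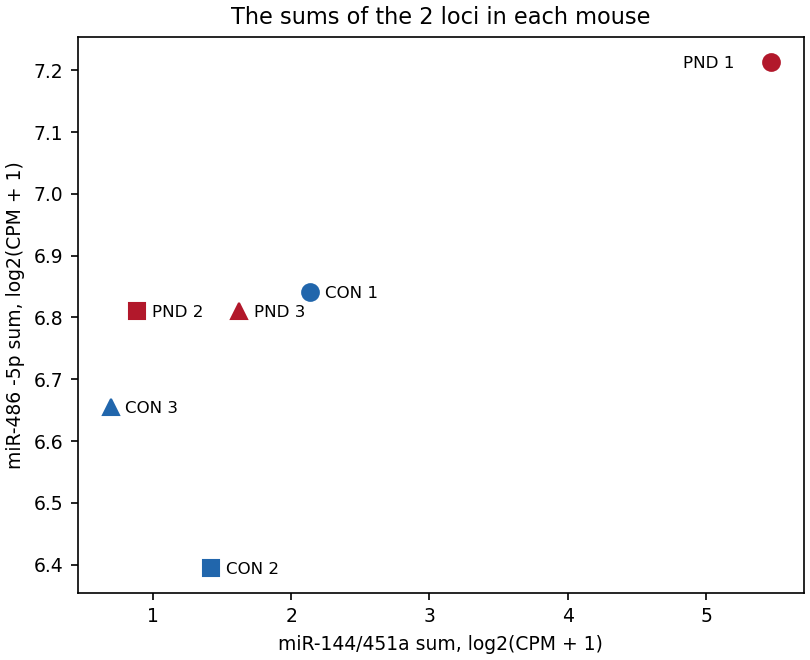
Sum of the miR-486 -5p entries against the sum of the miR-144/miR-451a arms in each mouse, both as log2(CPM + 1), with PND mice in red and CON mice in blue. PND mouse 1 lies alone at the upper right, and the other 5 mice had an r of 0.23 and a rho of 0.50.

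PND mouse 1 was then compared with the other mice on further blood miRNAs. The list of other miRNAs abundant in red cells, which cortex also expresses, summed to 2828 CPM in PND mouse 1 and to 3025 and 2963 CPM in PND mice 2 and 3. The CON mice had 2586 to 2818 CPM. This spread between mice was far wider than the 41.7 CPM by which PND mouse 1 exceeded the other PND mice in the cluster. A gain of that size could not be seen in the sum. Of its 9 members 2 were highest in PND mouse 1, miR-92a-3p at 351 CPM and miR-363-3p at 1.64 CPM, and miR-16-5p was at 711 CPM there against 833 and 830 CPM. None of the 9 had an unadjusted p under 0.05 between the groups in limma, and the median log2 fold change was 0.18. A higher mean in PND was found in 8 of the 9, and in 776 of all 1189 entries. miR-185-5p was the 1 member of 9 whose groups did not overlap, near the 7.91% of all entries.

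The leukocyte list of 6, with the myeloid miR-223 and the pan-leukocyte miR-142a, summed to 306 CPM in PND mouse 1 and to 284 to 337 CPM in the other mice. miR-223-3p, abundant in neutrophils and platelets, was lowest in PND mouse 1, at 1.44 CPM against 1.59 to 2.42 CPM. PND mice 1 and 2 each had 28 reads of it, and miR-223-5p was lowest in PND mouse 3, at 0.395 CPM. miR-142a-3p was at 8.17 CPM there and at 12.6 and 16.9 CPM in the other PND mice. Of the 6, miR-155-5p alone was highest in PND mouse 1, at 5.86 CPM against 3.91 to 5.82 CPM. Of the 6, miR-142a-5p alone had an unadjusted p under 0.05 between the groups (log2 fold change 0.51, limma, adjusted p = 0.77), where 5.13% of all entries did, and the median log2 fold change was 0.15. The vessel list of 4, with miR-126a of endothelium and miR-143/145a of mural cells, was at 22053 CPM in PND mouse 1 and at 22979 and 23890 CPM in PND mice 2 and 3. In the CON group it ran from 19026 to 24041 CPM. Of these 4, miR-145a-5p alone had an unadjusted p under 0.05 (log2 fold change 0.34, limma, adjusted p = 0.77), where 5.13% of all entries did. The median log2 fold change of the list was 0.30. The groups of miR-142a-5p and of miR-145a-5p did not overlap, with higher values in the PND group, a pattern found in 7.91% of all entries.

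A common measure of burst red cells in plasma is the ratio of miR-23a-3p, which red cells hold at a steady low level, to miR-451a. The log2 of this ratio of CPM was 3.16, 8.97 and 7.80 with PND, against 7.04, 7.87 and 9.05 without. miR-23a-3p itself was at 365 CPM in PND mouse 1 and at 330 to 414 CPM in the other mice. The ratio was thus set by miR-451a, and its difference between the groups was -1.35 (exact permutation test, two-sided, p = 0.6).

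**Figure D4:**
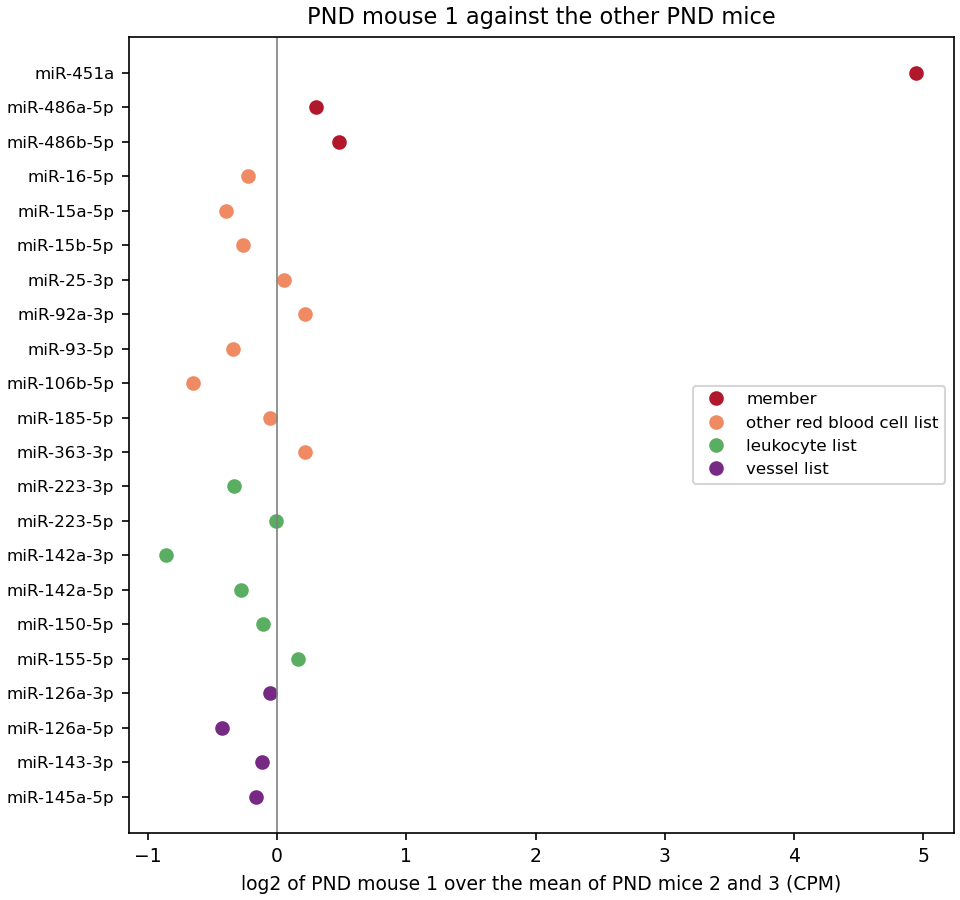
Log2 of the level in PND mouse 1 over the mean of PND mice 2 and 3, for miR-451a and the miR-486 -5p entries (red) and for the lists of other red cell, leukocyte and vessel miRNAs. The miR-144 arms are left out, as PND mice 2 and 3 had at most 3 reads of each. miR-451a is 30.8 times and the miR-486 entries are 1.23 and 1.39 times the other PND mice, and the other miRNAs lie on both sides of 0.

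To set miR-451a among all miRNAs, 553 entries with at least 30 reads in some library were examined, with limits chosen after the values were seen. Of these, 62 were highest in PND mouse 1 (11.2%), and 2 of the 62 were at least 5 times the next library, miR-451a and miR-144-5p. CON mouse 1 had 8 such entries, of the miR-200 and miR-183 clusters, and the other 4 mice had 0. Of these 2, miR-144-5p met the 30-read limit only through PND mouse 1, with 31 reads there and at most 4 in any other library. As the limits were chosen with these values seen, the counts are a description and test nothing.

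Among 653 other entries with at least 10 reads in 3 libraries, miR-7027-3p followed miR-451a most closely over the 6 mice (Pearson r = 0.94 on log2(CPM + 1)), read 49, 21 and 25 times with PND and 26, 20 and 14 times without. miR-3084-3p (r = 0.88), miR-551b-5p (0.88), miR-193a-5p (0.82) and miR-450b-3p (0.81) came next. Without PND mouse 1 the r was 0.95 for miR-7027-3p and between 0.42 and 0.63 for the other 4. Of these 5, the highest level was 2.88 CPM, so all were far below miR-451a in PND mouse 1. mmu-miR-486a-5p was followed most closely by miR-15a-3p (r = 0.99), miR-669c-5p (0.98), miR-448-5p (0.96), miR-672-3p (0.95) and miR-134-5p (0.94). These 5 shared with it a lowest value in CON mouse 2. The correlations are descriptions over 6 libraries that share depth and composition.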

How the data were processed

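Small RNA libraries of the prefrontal cortex of 3 PND and 3 CON mice were analysed, 1 per mouse. Groups and replicate numbers came from the sample titles. Nothing in them names a batch. By the published methods, the authors cleaned reads with fastx, mapped reads to the genome using Bowtie, counted known miRBase miRNAs, applied TMM and scaled to the total. The deposited values are CPM (named TPM there), and no TMM factor is visible in them. The submitters' processing notes name Bowtie 0.12.2 and the builds mm8 and mm9, without a role. Each column sums to 999998 or 999999. In each library 100% of values were whole multiples of 1 read (tolerance 0.01 read), and these reads gave depth, floors and count tests. Within each group no library was a copy of another (chi-square over its degrees of freedom was 120 to 651). Sequences are from RefSeq and positions from GENCODE release M21 (GRCm38), used only for identity.

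The main test was limma 3.58.1 (R 4.3.3; trend) on log2(CPM + 1) of all 1189 entries, without a filter or covariates, with Benjamini-Hochberg adjustment over all entries. Sums, ratios and correlations were tested by exact permutation over the mice (Python 3.11.15, scipy 1.17.1). Alternatives were a pseudocount of 0.1, a minimum of 10 reads in 3 libraries, no trend, TMM and size factors, edgeR 4.0.16, DESeq2 1.42.0, the replicate number as a block, group-mean fold changes and leaving out each mouse. Counting the 2 miR-486 -5p entries as 1, adding the -3p entries to the miR-486 sum, and leaving out PND mouse 1 under another scaling were chosen after seeing the data. The main limma fit, those with a pseudocount of 0.1, no trend, TMM factors or the block, edgeR and DESeq2 were tested on simulated data. The named miRNAs were the members, other arms of the loci, miR-23a-3p, marker lists (red cells, leukocytes, vessels, muscle, neurons, oligodendrocytes, epithelium) and the 5 entries most correlated with miR-451a or miR-486a-5p. The members and lists were chosen with earlier results of these data known.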

Additional observations from a re-analysis of the deposited data

How the results depend on the processing

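Direction and call were kept for miR-144-3p, miR-144-5p, mmu-miR-486b-5p and the miR-486 sum in every alternative run. For miR-451a the log2 fold change was 2.97 in edgeR's quasi-likelihood test and 2.96 in its exact test, where it alone of the members passed the limits (members called 1 in both), and it ran from -0.20 (without PND mouse 1) to 2.07 with each mouse left out. DESeq2 gave no p for it. With each mouse left out mmu-miR-486a-5p ran from 0.14 to 0.52 (the latter, without CON mouse 1, with an unadjusted p under 0.05), the cluster sum from -0.16 to 2.13, the difference between the loci from -0.34 to 1.75 (below 0 without PND mouse 1 for both) and the correlation of the loci from 0.23 to 0.97 (exact permutation p = 0.0167 without CON mouse 2). The correlation was 0.95 with TMM and 0.96 with DESeq2 size factors, and 0.42 and 0.45 when PND mouse 1 was also left out, a setting chosen after seeing the data. All entries past the limits numbered 1, and 22 with a pseudocount of 0.1, 0 without trend, 32 in the quasi-likelihood test, 31 in the exact test, 11 in DESeq2, 42 with group-mean fold changes and 0 to 1 with a mouse left out.

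Same-numbered libraries deviated from their group means with correlations of -0.13, 0.12 and 0.51 over 361 entries, so the numbers were not taken as pairs. With the replicate number as a block 2 entries and 0 members were called, and miR-451a kept its log2 fold change of 1.20 (adjusted p = 0.75 in limma). With 3 mice a group and at most 4 reads of either miR-144 arm in 5 of the libraries, differences in miR-144 were not detectable outside PND mouse 1.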

Other observations

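miR-486 is also a miRNA of muscle, and the muscle list was therefore set beside it. The list of 4 (miR-1a-3p, miR-133a-3p, miR-133b-3p and miR-206-3p) gave sums of 503, 602 and 582 CPM for PND mice 1 to 3, against 413, 562 and 593 CPM for CON mice 1 to 3. PND mouse 1, highest in both miR-486 -5p entries, was the lowest PND mouse in this sum, and CON mouse 2, lowest in both as deposited but the highest CON mouse for mmu-miR-486b-5p with TMM or DESeq2 size factors, was above CON mouse 1. The sum was mostly miR-1a-3p, at 483 CPM in PND mouse 1. PND mouse 1 was lowest of its group for miR-1a-3p and miR-133a-3p. It was above PND mouse 3 for miR-133b-3p (0.616 against 0.282 CPM) and miR-206-3p (4.73 against 3.67 CPM). Of the 4, 0 had an unadjusted p under 0.05 in limma, and the median log2 fold change was 0.24. The groups of miR-133a-3p did not overlap, with 14.3 to 16.8 CPM in the PND mice and 12.5 to 13.6 CPM in the CON mice, a pattern found in 7.91% of all entries.

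The 2 oligodendrocyte miRNAs, miR-219a-5p and miR-338-3p, were lowest in CON mouse 2, at 2.02 and 193 CPM. PND mouse 1 was at 7.81 and 251 CPM, below the other PND mice for both, and the median log2 fold change of the 2 was 0.47, with 0 at an unadjusted p under 0.05 in limma. The 4 neuronal miRNAs had a median log2 fold change of 0.01 and the 5 epithelial miRNAs of -1.52, all 5 highest in CON mouse 1, and 0 of these 9 had an unadjusted p under 0.05 in limma. In CON mouse 1, which carried the epithelial miRNAs, miR-451a was the second highest of the 6 libraries, and the part of either tissue in the other was not tested.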
